A study of Homo sapiens with 30 samples.

Results

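Okbyeongpung-san at 500 µg/mL was set against the same extract at 100 and 20 µg/mL in SW1783 cells, an established human astrocytoma line. The comparison used 6 of the 30 RNA sequencing libraries of the study, chosen by their labels alone. They comprise 2 libraries at 500 µg/mL, 2 at 100 µg/mL and 2 at 20 µg/mL, and the 4 libraries at 100 and 20 µg/mL were pooled as the lower doses. All 6 came from cells kept for 24 h with an ethanol extract of the decoction. Each concentration has a replicate 2, whose title names batch E, and a replicate 3, whose title names batch D, and all 6 library names belong to a single library set. The 3 libraries of cells given DMSO as vehicle belong to another set and are quoted only as background levels. The labels give 0.1% DMSO for the vehicle and the series description gives 2%, and neither gives a solvent concentration for the extract groups. The series description also says that extracts whose IC20 lay under 500 µg/mL were given at that concentration and its dilutions, while the labels here read 500, 100 and 20 µg/mL. Nothing in the labels says whether separate cultures were used for the replicates, so the tests speak to library-to-library spread, possibly technical, and no more.

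Okbyeongpung-san, known in Chinese as Yu Ping Feng San, is a decoction of Astragalus root, Atractylodes rhizome and Saposhnikovia root. Several stress programmes bear on the genes described here. The transcription factor NRF2, encoded by NFE2L2, is held back by KEAP1 and, once released, drives genes of heme breakdown, glutathione, thioredoxin and NADPH supply through antioxidant response elements. The proteasome degrades ubiquitin-tagged proteins in a core particle of alpha and beta rings, and a regulatory particle of ATPases and other subunits feeds proteins into the core. ATF4, made when translation is held back under stress, drives amino acid supply genes and stress effectors, and heat shock factor drives cytosolic chaperones.

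The 6 libraries held 25.73 to 31.41 M estimated counts, within the 23.87 to 33.06 M of all 30 libraries. Levels are given as CPM, counts per M of the library total after TMM scaling. They are not divided by gene length, so they compare libraries for a given gene and not genes with each other. On the first principal component (50.9% of the variance) both libraries at 500 µg/mL stood apart from the 4 at lower doses, and the second (22.5%) separated batch D from batch E. Within a batch, the libraries at 100 and 20 µg/mL differed little, with a chi-square per degree of freedom of 3.48 in batch D and 3.87 in batch E. Between batches at equal dose this value was 17.75 to 25.56, and between a library at 500 µg/mL and one at a lower dose it was 28.42 to 58.92. The astrocyte markers GFAP, S100B, AQP4, SLC1A2 and ALDH1L1 and the progenitor factor SOX2 stayed under 1 CPM in every library. The glial label was taken from the name of the line, and whether these data bear it out was not tested. The summed level of all 12 astrocyte and glioma markers, most of it from the filament protein vimentin, was 6623 and 7771 CPM at 500 µg/mL, against 7787 to 8612 CPM at the lower doses. Markers of leukocytes summed to 156 to 247 CPM at 500 µg/mL and 166 to 192 CPM at the lower doses, with the defining genes AIF1, CD3E, ITGAM and TMEM119 under 1 CPM. In bulk libraries, fewer cells of a type and less RNA per cell cannot be told apart.

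At 500 µg/mL 27.2% of the tested genes differed from the lower doses, nearly all of them by less than 2-fold. Of 16445 genes that passed the count filter, 4475 passed an adjusted p of 0.05 (27.2%), 2378 of them higher at 500 µg/mL (14.5%) and 2097 lower (12.8%). Without the batch term the count was 2174, all of them among the 4475. Changes of at least 2-fold were found in 198 higher genes (1.2%) and 113 lower genes (0.687%). Both libraries at 500 µg/mL lay above all 4 at the lower doses for 3265 genes (19.9%) and below all 4 for 3151 (19.2%). Leaving out replicate 2 at 20 µg/mL gave 2802 genes, the lowest count of any library left out, and leaving out replicate 3 at 500 µg/mL gave 5874, the highest.

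The steps of the dose series differed in how many genes they called. No gene passed the test between 100 and 20 µg/mL (0 of 16445, 0.0%), in edgeR or in DESeq2, and 207 genes had an unadjusted p under 0.05. That is fewer than a share of 0.05 of the tested genes, so this test was conservative. Its spread was estimated with the libraries at 500 µg/mL included. The absence of calls therefore does not show that 100 and 20 µg/mL act alike. Between 500 and 100 µg/mL, 2202 genes passed (13.4%), 1243 higher (7.56%) and 959 lower (5.83%). This count fell to 481 when replicate 2 at 100 µg/mL was left out and was 5228 when replicate 3 at 500 µg/mL was left out. Leaving out replicate 3 at 100 µg/mL gave 1046, replicate 2 at 20 µg/mL 1357 and replicate 3 at 20 µg/mL 1312, and the count was 620 without the batch term. For the 2378 genes higher at 500 µg/mL, the median share of the log2 change already reached at 100 µg/mL was 0.011, and for the 2097 lower genes it was 0.041. The test pooled 100 and 20 µg/mL, so it favours genes that are flat between them, and these shares only describe the called genes. Over all tested genes the median share was 0.097. The panels of the dose series show this shape for most of the genes drawn, nearly flat between 20 and 100 µg/mL and steep between 100 and 500 µg/mL, while SCD was already lower at 100 than at 20 µg/mL in both batches.

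**Figure D1:**
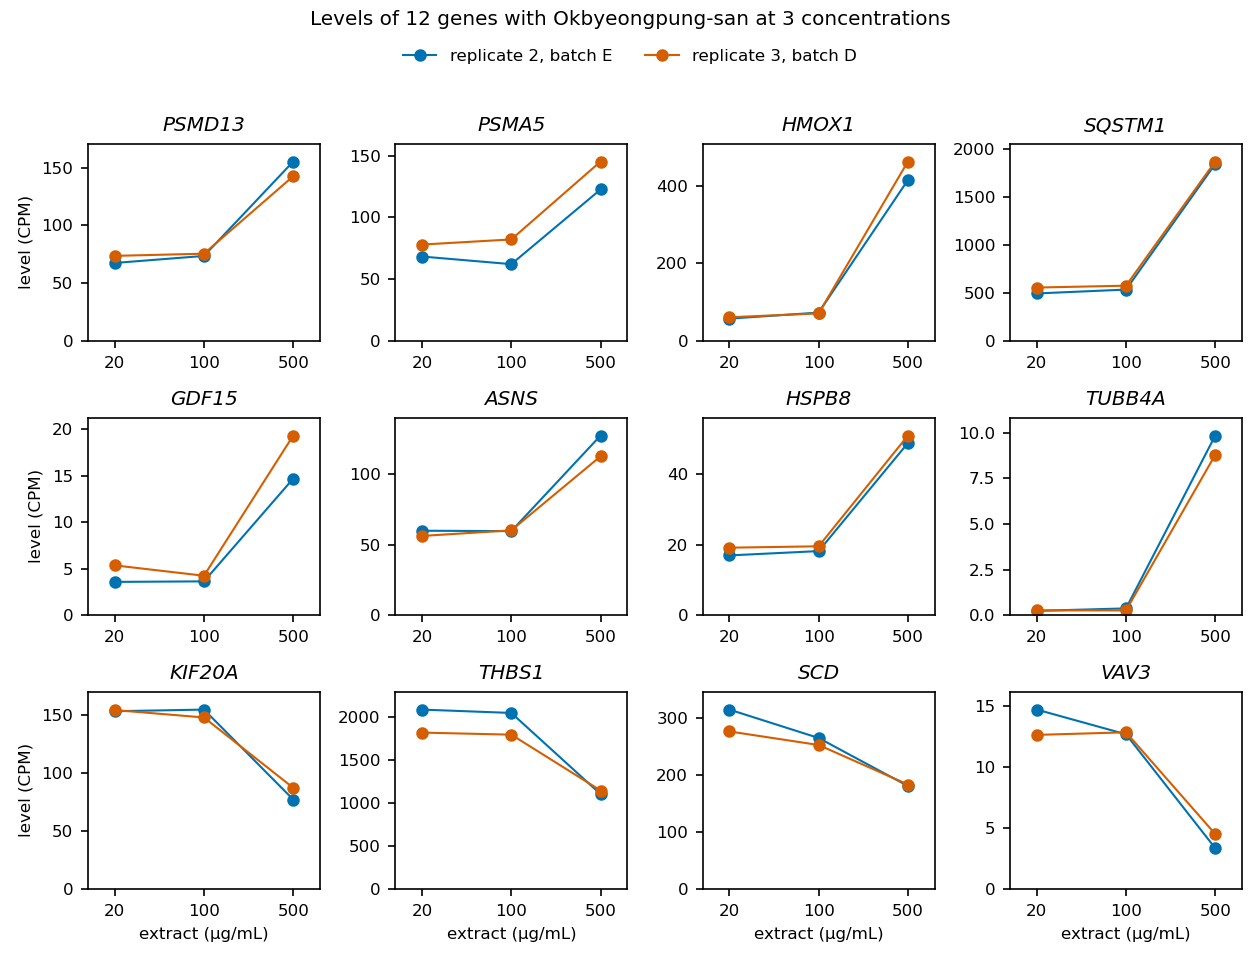
Levels of 12 genes in CPM (vertical axis, linear, from 0) at 20, 100 and 500 µg/mL of Okbyeongpung-san, 1 point per library, with lines joining the libraries of a batch (blue for replicate 2 in batch E, orange for replicate 3 in batch D). In each panel both libraries at 500 µg/mL lie outside the range of the 4 libraries at 20 and 100 µg/mL, above it for the first 8 genes and below it for KIF20A, THBS1, SCD and VAV3.

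All 31 listed subunit genes of the proteasome rose at 500 µg/mL, the most uniform change of any list examined. The median log2 fold change of the 31 was 0.72, against 0.01 over all tested genes, and single subunits lay between 0.33 and 1.04. Summed over the 31 genes, the level was 6612 CPM in replicate 2 and 7185 CPM in replicate 3 at 500 µg/mL, against 4236 and 4646 CPM at 100 µg/mL and 4176 and 4658 CPM at 20 µg/mL. The vehicle libraries held 4759, 4453 and 4411 CPM, so the libraries at lower doses stood near the vehicle level and both at 500 µg/mL stood above it. For 30 of the 31 genes both libraries at 500 µg/mL lay above all 4 at the lower doses, and PSMD8 was the exception.

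Each part of the particle took part. The 7 genes of the alpha ring summed to 1235 and 1270 CPM at 500 µg/mL, against 717 to 843 CPM at the lower doses, with a median log2 fold change of 0.76. The 7 genes of the beta ring, which carries the cutting sites, summed to 1222 and 1560 CPM at 500 µg/mL and 784 to 953 CPM at the lower doses. The 6 ATPases that unfold substrates summed to 1197 and 1234 CPM, against 706 to 824 CPM. The other 11 listed subunits of the regulatory particle had the lowest median, 0.58, and also held both the smallest and the largest change of the whole list.

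PSMD13 (chromosome 11:236546-252984, GRCh38), a scaffold subunit of the regulatory particle, had the largest change. Its level was 155 and 143 CPM at 500 µg/mL, against 73.6 and 75.6 CPM at 100 µg/mL and 67.6 and 73.7 CPM at 20 µg/mL, a log2 fold change of 1.04 ± 0.06 (SE; adjusted p = 1.67e-05). The groups did not overlap, and the lower doses lay within or below the vehicle range of 73.2 to 82.4 CPM. PSMA5 of the alpha ring stood at 123 and 145 CPM at 500 µg/mL and at 62.2 to 82.2 CPM at the lower doses (0.88 ± 0.06, adjusted p = 2.09e-05). PSMB5, the beta subunit with chymotrypsin-like activity, reached 139 and 156 CPM, against 83.7 to 99.3 CPM (0.70 ± 0.05, adjusted p = 2.85e-05). PSMD14, the subunit that removes ubiquitin chains, stood at 115 and 127 CPM, against 67.0 to 71.1 CPM (0.79 ± 0.05, adjusted p = 2.51e-05). PSMD8 changed least, with 182 and 241 CPM at 500 µg/mL and 152 to 185 CPM at the lower doses (0.33 ± 0.06, adjusted p = 0.00399), and it did not pass the test without the batch term (adjusted p = 0.0947).

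**Figure D2:**
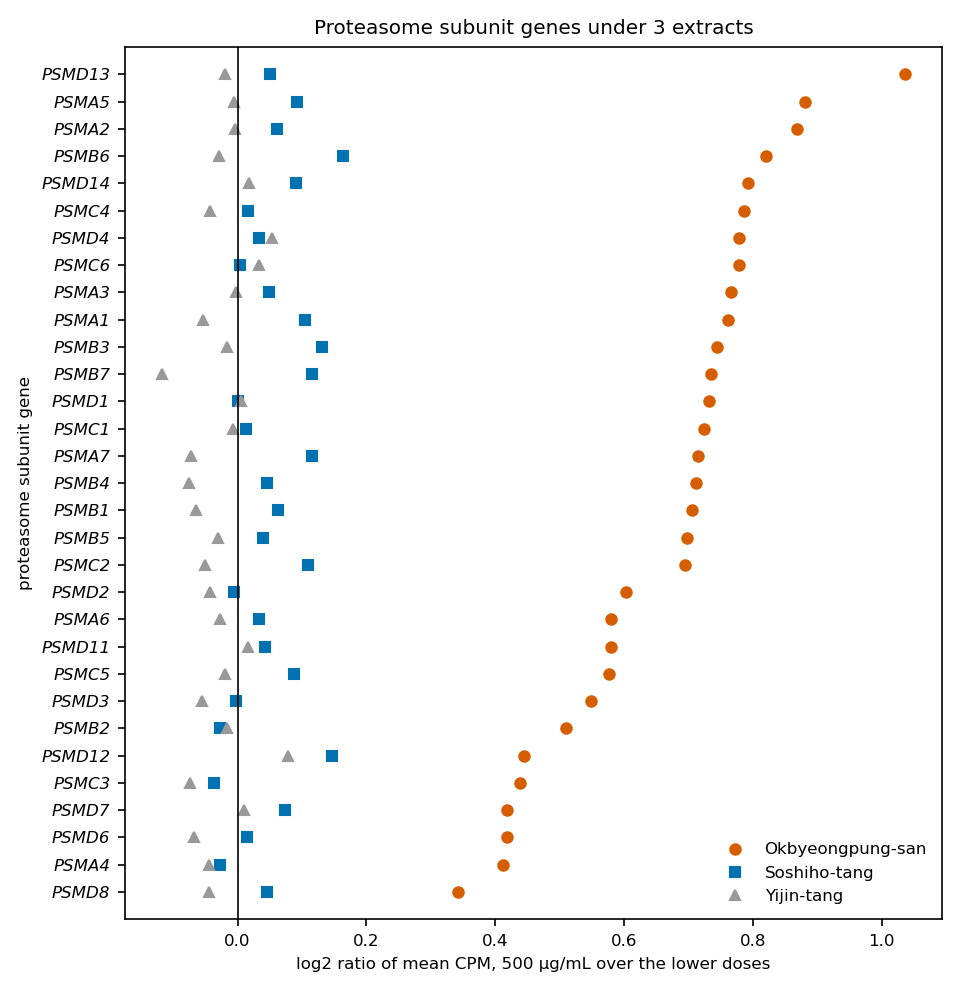
Log2 ratio of the mean CPM at 500 µg/mL over the mean at 100 and 20 µg/mL (horizontal axis) for each of 31 proteasome subunit genes (vertical axis), under Okbyeongpung-san (circles, 2 against 4 libraries), Soshiho-tang (squares, 3 against 6) and Yijin-tang (triangles, 3 against 6). The circles run from 0.34 to 1.04, while the squares lie between -0.04 and 0.16 and the triangles between -0.12 and 0.08.

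Genes tied to the proteasome but outside this list were looked up after these values had been seen. POMP, which helps the core particle assemble, stood at 203 and 204 CPM at 500 µg/mL, against 79.9 to 127 CPM (1.00 ± 0.11, adjusted p = 3.70e-04). Its change was smaller in batch D than in batch E (0.69 in batch D and 1.29 in batch E on the log2 scale, adjusted p of the difference 0.00139). VCP, the ATPase that extracts tagged proteins from complexes, was at 835 and 744 CPM, against 470 to 503 CPM (0.68 ± 0.05). The ubiquitin receptor ADRM1 (0.61 ± 0.06), the deubiquitinase USP14 (0.43 ± 0.05) and the polyubiquitin gene UBB (0.55 ± 0.09) also rose, as did ZFAND2A, which binds the proteasome under stress (0.94 ± 0.08, at 26.2 and 25.4 CPM against 11.9 to 15.4 CPM). The subunits of the immunoproteasome did not follow. PSMB8 stood at 30.1 and 35.2 CPM at 500 µg/mL and 25.7 to 34.9 CPM at the lower doses (0.11 ± 0.06, adjusted p = 0.213). PSMB9 stood at 7.95 and 12.2 CPM, against 9.11 to 12.5 CPM (-0.14 ± 0.09, adjusted p = 0.305). NFE2L1, the transcription factor known to drive proteasome genes when the particle is blocked, was at 526 and 510 CPM, against 505 to 519 CPM (0.02 ± 0.05, adjusted p = 0.774).

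Promoter sequences of genes that rose were searched for the letters of stress elements. The antioxidant response element was searched as TGACNNNGC and the C/EBP-ATF element bound by ATF4 as TGATGNAA, on both strands of the 250 bases before the RefSeq start (GRCh38.p14), and no promoter printed here holds both. TGACNNNGC was present in 3013 of all 27305 promoters, in 12.1% of those of tested genes, in 15.0% of 1878 genes higher at 500 µg/mL and in 9.82% of 1630 genes lower. Among genes at least 2-fold higher the share was 18.9% of 122. Of proteasome genes 3 of 26 with a promoter held it (PSMB3, PSMD3 and PSMD12), and of heme and detoxification genes that rose 2 of 17. These shares, 11.5% and 11.8%, were no higher than the 12.1% of tested genes, so the match in PSMD12 does not set it apart. Of glutathione, thioredoxin and NADPH genes that rose 4 of 10 held it. TGATGNAA was present in 3.19% of all promoters, 1.39% of tested genes and 1.65% of higher genes. A match is a description of the letters and not a measured binding site. The promoters of GCLM and TXNRD1, which rose with NRF2 targets, of the proteasome gene PSMD12 and of the ATF4 target ASNS are shown with the match in capitals, in the strand of the gene.
GCLM (chr1:93909431-93909680, minus strand): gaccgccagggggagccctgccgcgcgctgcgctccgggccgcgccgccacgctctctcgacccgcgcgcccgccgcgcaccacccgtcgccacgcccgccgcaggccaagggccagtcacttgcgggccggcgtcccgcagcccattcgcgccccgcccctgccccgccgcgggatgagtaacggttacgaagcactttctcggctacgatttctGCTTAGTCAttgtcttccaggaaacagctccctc
TXNRD1 (chr12:104215529-104215778, plus strand): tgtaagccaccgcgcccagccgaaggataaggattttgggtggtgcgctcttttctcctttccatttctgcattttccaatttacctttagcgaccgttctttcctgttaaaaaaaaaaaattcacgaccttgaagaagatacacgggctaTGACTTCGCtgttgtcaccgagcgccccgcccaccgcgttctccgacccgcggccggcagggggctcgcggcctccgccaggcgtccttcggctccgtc
PSMD12 (chr17:67366578-67366827, minus strand): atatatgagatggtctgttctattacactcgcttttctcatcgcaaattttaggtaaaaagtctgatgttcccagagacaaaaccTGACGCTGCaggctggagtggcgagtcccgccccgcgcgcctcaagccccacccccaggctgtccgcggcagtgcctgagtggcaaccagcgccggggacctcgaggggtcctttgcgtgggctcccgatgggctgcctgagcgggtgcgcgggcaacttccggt
ASNS (chr7:97872409-97872658, minus strand): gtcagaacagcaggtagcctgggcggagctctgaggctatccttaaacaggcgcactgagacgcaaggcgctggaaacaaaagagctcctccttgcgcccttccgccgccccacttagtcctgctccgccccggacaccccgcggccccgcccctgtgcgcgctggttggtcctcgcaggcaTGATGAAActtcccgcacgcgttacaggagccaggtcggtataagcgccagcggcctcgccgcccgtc
In GCLM the capitals hold the element on the opposite strand. In PSMD12 and TXNRD1 they hold it on the gene's strand, and in ASNS they hold TGATGNAA on the gene's strand.

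Targets of NRF2 in heme, iron and detoxification rose in 22 of 26 genes at 500 µg/mL, with a median log2 fold change of 0.82, and none fell. HMOX1 (chromosome 22:35380361-35394214), the gene of heme oxygenase, which breaks heme down, had the largest change of this list. It stood at 414 and 462 CPM at 500 µg/mL, against 73.2 and 71.1 CPM at 100 µg/mL and 57.6 and 61.1 CPM at 20 µg/mL (2.73 ± 0.09, adjusted p = 8.80e-07). The vehicle libraries lay between 55.7 and 60.6 CPM, next to the libraries at 20 µg/mL. SQSTM1, an autophagy receptor that binds KEAP1, reached 1841 and 1866 CPM, against 495 to 575 CPM (1.78 ± 0.05, adjusted p = 5.35e-07). Both ferritin chains rose: FTL stood at 2403 and 3421 CPM, against 1137 to 1514 CPM (1.14 ± 0.05), and FTH1 at 2371 and 2907 CPM, against 1110 to 1426 CPM (1.05 ± 0.05). AKR1C1, an aldo-keto reductase with near-identical relatives, was at 74.7 and 75.3 CPM, against 21.0 to 23.0 CPM (1.76 ± 0.05). PIR, an iron-binding nuclear protein (1.43 ± 0.07), OSGIN1, an oxidative stress regulator of cell growth (1.32 ± 0.08), and the biliverdin reductase BLVRB (1.23 ± 0.06) also rose. NQO1, the quinone reductase often used as a marker of NRF2, changed less, with 236.5 and 259.8 CPM against 157 to 179 CPM (0.58 ± 0.05, adjusted p = 8.06e-05). ABCC1, an exporter of glutathione conjugates, did not pass (-0.15 ± 0.05, adjusted p = 0.0647).

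Redox targets of NRF2 rose in 13 of 18 genes, with a median of 0.61, and none fell. The sulfiredoxin gene SRXN1, which repairs peroxiredoxins, stood at 212 and 214 CPM, against 85.5 to 97.3 CPM (1.20 ± 0.05, adjusted p = 3.52e-06). The cystine transporter SLC7A11 was at 363.5 and 319.5 CPM at 500 µg/mL and 141 to 190 CPM at the lower doses (0.99 ± 0.08), and malic enzyme ME1, a source of NADPH, at 31.6 and 29.2 CPM, against 14.6 to 16.2 CPM (1.00 ± 0.06). Both chains of glutamate-cysteine ligase, the first enzyme of glutathione synthesis, rose. GCLM reached 166 and 167 CPM, against 83.2 to 101 CPM (0.86 ± 0.06), and GCLC 62.3 and 57.0 CPM, against 39.6 to 41.6 CPM (0.56 ± 0.05). TXNRD1, thioredoxin reductase, stood at 472 and 492 CPM, against 298 to 332 CPM (0.62 ± 0.05). GGT1, which shares near-identical copies, was at 2.09 and 2.20 CPM, against 0.580 to 0.868 CPM (1.58 ± 0.23).

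The pentose phosphate enzyme TKT and the lipid peroxidase GPX4 were not called. TKT stood at 431 and 531 CPM at 500 µg/mL, against 454 to 496 CPM (adjusted p = 0.827), and GPX4 at 92.8 and 119 CPM, against 89.2 to 129.9 CPM (adjusted p = 0.848). For both genes the groups overlapped. The transcript of NRF2 itself, NFE2L2, fell slightly, with 82.2 and 76.2 CPM against 87.8 to 96.6 CPM (-0.21 ± 0.05, adjusted p = 0.0121), and this call was lost without the batch term (adjusted p = 0.0917) and against 20 µg/mL alone (0.0503). Its inhibitor KEAP1 rose, at 53.5 and 56.9 CPM against 36.6 to 47.0 CPM (0.41 ± 0.06, adjusted p = 0.00195). Of 5 tested metallothionein and zinc genes 3 rose, among them the metal-binding MT2A, at 293.5 and 349.7 CPM, against 131 to 249 CPM (0.86 ± 0.11, adjusted p = 8.68e-04).

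Effectors of ATF4 rose in 12 of 19 tested genes (of 20 listed), with a median of 0.68, and none fell. GDF15 (chromosome 19:18374731-18389176), a cytokine released by stressed cells, stood at 14.7 and 19.3 CPM at 500 µg/mL, against 3.63 and 4.23 CPM at 100 µg/mL and 3.57 and 5.34 CPM at 20 µg/mL (2.02 ± 0.10, adjusted p = 6.04e-06). The small GTPase RND3 was at 178 and 146 CPM, against 65.3 to 68.4 CPM (1.28 ± 0.07). The pseudokinase TRIB3 reached 59.4 and 49.2 CPM, against 21.4 to 23.4 CPM (1.25 ± 0.07), and DDIT3, the transcription factor CHOP, 38.9 and 43.0 CPM, against 16.2 to 22.6 CPM (1.12 ± 0.07). NIBAN1 (1.08 ± 0.06), the phosphatase subunit PPP1R15A (0.78 ± 0.10) and the leucine sensor SESN2 (0.68 ± 0.05) rose as well. ATF4 itself was at 204 and 186 CPM, against 125 to 154 CPM (0.49 ± 0.08, adjusted p = 0.00278). CHAC1, which degrades glutathione and is a common ATF4 target, did not pass, at 6.01 and 8.06 CPM against 5.16 to 6.28 CPM (0.32 ± 0.11, adjusted p = 0.0525), and it was called when replicate 2 at 500 µg/mL was left out (0.43, adjusted p = 0.0379) and in the fit of 24 libraries (adjusted p = 0.0362).

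Amino acid supply genes rose in 10 of 20, with a median of 0.20. Asparagine synthetase, ASNS, whose promoter is printed with the promoters, was at 127 and 113 CPM at 500 µg/mL, against 56.1 to 60.1 CPM (1.02 ± 0.05, adjusted p = 8.62e-06). SLC3A2, the heavy chain partner of SLC7A11, stood at 236 and 239 CPM, against 125 to 140 CPM (0.84 ± 0.05). The serine enzymes PSAT1 (0.75 ± 0.05) and PHGDH (0.51 ± 0.06) and cystathionine lyase CTH (0.69 ± 0.09) rose too. PYCR1, of proline synthesis, stood at 65.4 and 81.9 CPM, against 65.4 to 79.8 CPM (0.01 ± 0.05, adjusted p = 0.894), and the glutamine transporter SLC38A2 at 383 and 384 CPM, against 390.1 to 444 CPM (-0.12 ± 0.05, adjusted p = 0.136). Of 20 cytosolic tRNA synthetases 10 rose, with a median of 0.18, led by GARS1 at 355 and 311 CPM, against 219 to 248 CPM (0.54 ± 0.06, adjusted p = 3.04e-04).

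Chaperone genes rose in part, and unevenly. Of 21 cytosolic heat shock genes 12 rose and none fell, with a median of 0.25, and 8 were called without the batch term. HSPB8, a small heat shock protein of chaperone-assisted autophagy, was at 48.9 and 51.0 CPM at 500 µg/mL, against 17.0 to 19.6 CPM (1.44 ± 0.06, adjusted p = 2.09e-06). HSPA1A and HSPA1B, near-identical copies between which reads cannot be assigned with certainty, stood at 249 and 237 CPM, against 103 to 130.1 CPM (1.08 ± 0.07), and at 226 and 189 CPM, against 72.3 to 82.6 CPM (1.43 ± 0.08). HSPA6, a strictly inducible relative outside the list, was at 1.56 and 1.502 CPM, against 0.0361 to 0.161 CPM (3.71 ± 0.37, adjusted p = 2.31e-04), from 82 reads in both libraries at 500 µg/mL and 13 in the 4 others. The co-chaperones DNAJA1 (0.42 ± 0.08) and DNAJB1 (0.25 ± 0.05) changed less. HSPB1, at 275 and 298 CPM against 269 to 333 CPM (-0.07 ± 0.05, adjusted p = 0.405), and BAG3, the partner of HSPB8, at 64.5 and 73.8 CPM against 61.3 to 71.5 CPM (0.05 ± 0.05, adjusted p = 0.498), did not pass.

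Chaperones of the endoplasmic reticulum rose in 9 of 20 genes, with a median of 0.19 and none lower. The count was 18 without replicate 3 at 500 µg/mL, the library of batch D, and 6 without the batch term. DNAJB9, a co-chaperone of that compartment, was at 39.4 and 40.5 CPM at 500 µg/mL, against 21.5 to 22.8 CPM (0.84 ± 0.06, adjusted p = 2.78e-05), and HERPUD1, which takes part in the export of misfolded proteins, at 106 and 109 CPM, against 63.0 to 64.2 CPM (0.76 ± 0.04). HSPA5, the main chaperone of the compartment, stood at 4706 CPM in batch E and 3639 CPM in batch D, against 3096 to 3230 CPM (0.40 ± 0.08, adjusted p = 0.00634). Its change was 0.20 in batch D and 0.58 in batch E on the log2 scale. Calnexin, CANX, overlapped between the groups at 3039 and 2517 CPM against 2454 to 2783 CPM (0.07 ± 0.05, adjusted p = 0.307).

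Most of the 12 largest rises fell on genes that were nearly silent at the lower doses. The rule for naming favours such genes, since it asks for 1 CPM only in the higher group and ranks by fold change. HMOX1 and ANGPTL4, also among the 12, were not nearly silent there. TUBB4A (chromosome 19:6494319-6502848), a beta tubulin best known from neurons and oligodendrocytes, stood at 9.85 and 8.79 CPM at 500 µg/mL, against 0.366 and 0.253 CPM at 100 µg/mL and 0.230 and 0.258 CPM at 20 µg/mL (5.04 ± 0.17, adjusted p = 8.80e-07). KIF1A (chromosome 2:240713761-240821036), a kinesin that carries synaptic vesicle precursors in neurons, was at 1.86 and 1.72 CPM, against 0.0333 to 0.108 CPM (4.60 ± 0.37), from 96 reads at 500 µg/mL and 8 in the 4 other libraries. DYNC1I1, a dynein intermediate chain, was at 3.42 and 1.90 CPM, against 0.108 to 0.233 CPM (3.88 ± 0.28). MAP1A, a microtubule-associated protein of mature neurons, was at 249.6 and 203 CPM against 71.2 to 82.5 CPM (1.52 ± 0.06, adjusted p = 2.09e-06). As a group, tubulins did not rise: of 15 tested 1 was higher and 6 lower, with a median of -0.20. Over all tested genes 14.5% were higher and 12.8% lower. The lower count of tubulins was 2 without the batch term. Of 13 tested neuronal kinesins and microtubule proteins 4 were higher and 2 lower, and 7 were not called. The lower ones were the transport motor KIF5A (-0.53 ± 0.15) and the dendritic microtubule protein MAP2 (-0.51 ± 0.14). The neuron markers as a list summed to 55.5 and 57.0 CPM at 500 µg/mL, against 63.0 to 65.4 CPM, and RBFOX3, NEFM, NEFH, SLC17A7, GAD1 and ELAVL4 stayed under 1 CPM in every library. Of the 5 tested neuron markers SYT1 was lower (-0.25), and SYP, NEFL, SNAP25 and GAD1 were not called.

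Of the other genes among the 12 highest, ANGPTL4, a secreted inhibitor of lipoprotein lipase, had the highest level, at 71.5 and 88.7 CPM against 8.32 to 14.3 CPM (2.85 ± 0.10, adjusted p = 1.17e-06). KIAA0319, a neuronal membrane glycoprotein, stood at 4.60 and 4.58 CPM, against 0.230 to 0.386 CPM (3.86 ± 0.21). GCNT3, a mucin glycosyltransferase (3.64 ± 0.31), BHMT2, a homocysteine methyltransferase (3.29 ± 0.25), PPP2R2C, a phosphatase subunit (3.12 ± 0.39), and CYP4F11, a fatty acid hydroxylase (2.64 ± 0.25), were each under 1 CPM in all 4 libraries at the lower doses. RGPD5 belongs to a family of near-identical copies, and its level of 10.8 and 18.8 CPM, against 1.61 to 1.80 CPM (3.10 ± 0.16), is uncertain for that reason. In the vehicle libraries RGPD5 ranged from 1.99 to 13.4 CPM. HMOX1 and HSPA6 complete the 12.

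Genes of the cell cycle were lower at 500 µg/mL. Of 32 mitotic genes 30 fell and 1 rose, with a median log2 fold change of -0.40. KIF20A (chromosome 5:138178719-138187715), a kinesin of the mitotic midzone, was at 77.2 and 87.3 CPM at 500 µg/mL, against 148 to 155 CPM at the lower doses (-0.89 ± 0.06, adjusted p = 3.04e-05). MKI67, the proliferation marker Ki-67, stood at 228 and 192 CPM, against 324 to 431 CPM (-0.79 ± 0.09, adjusted p = 3.43e-04). The kinase PLK1 (-0.55 ± 0.07), the spindle protein NUSAP1 (-0.58 ± 0.07) and topoisomerase TOP2A (-0.37 ± 0.06) fell less. Cyclin B, CCNB1, was the member that did not pass, at 166 and 157 CPM against 168 to 185 CPM (-0.12 ± 0.06, adjusted p = 0.173), and it was called when replicate 2 at 500 µg/mL was left out (-0.22, adjusted p = 0.0128). The checkpoint gene BUB3 was the member that rose (0.17 ± 0.05, adjusted p = 0.0387), a call lost when any library other than replicate 3 at 500 µg/mL was left out (adjusted p 0.0673 to 0.267) and without the batch term (0.127).

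Of 36 replication and nucleotide supply genes 22 fell and none rose, with a median of -0.25, and 11 were called without the batch term. Without replicate 2 at 100 µg/mL or replicate 3 at 20 µg/mL the count was 14. The polymerase subunit POLE was at 51.0 and 52.2 CPM at 500 µg/mL, against 71.2 to 79.0 CPM (-0.51 ± 0.06, adjusted p = 3.85e-04). Thymidylate synthase TYMS (-0.48 ± 0.06) and the ribonucleotide reductase subunit RRM2 (-0.38 ± 0.05) fell by similar amounts. The sliding clamp PCNA overlapped between the groups, at 98.8 and 102 CPM against 98.8 to 111 CPM (adjusted p = 0.386). Among 23 targets of p53, 9 rose and 3 fell, with a median of 0.12, beside 14.5% higher and 12.8% lower over all tested genes. The cell cycle inhibitor CDKN1A stood at 31.9 and 43.0 CPM, against 17.8 to 21.5 CPM (0.93 ± 0.07, adjusted p = 5.38e-05). GADD45A, a stress sensor, was at 106 and 75.8 CPM, against 42.1 to 57.0 CPM (0.91 ± 0.15), and its change was smaller in batch D (0.47) than in batch E (1.31; adjusted p of the difference 2.75e-04).

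**Figure D3:**
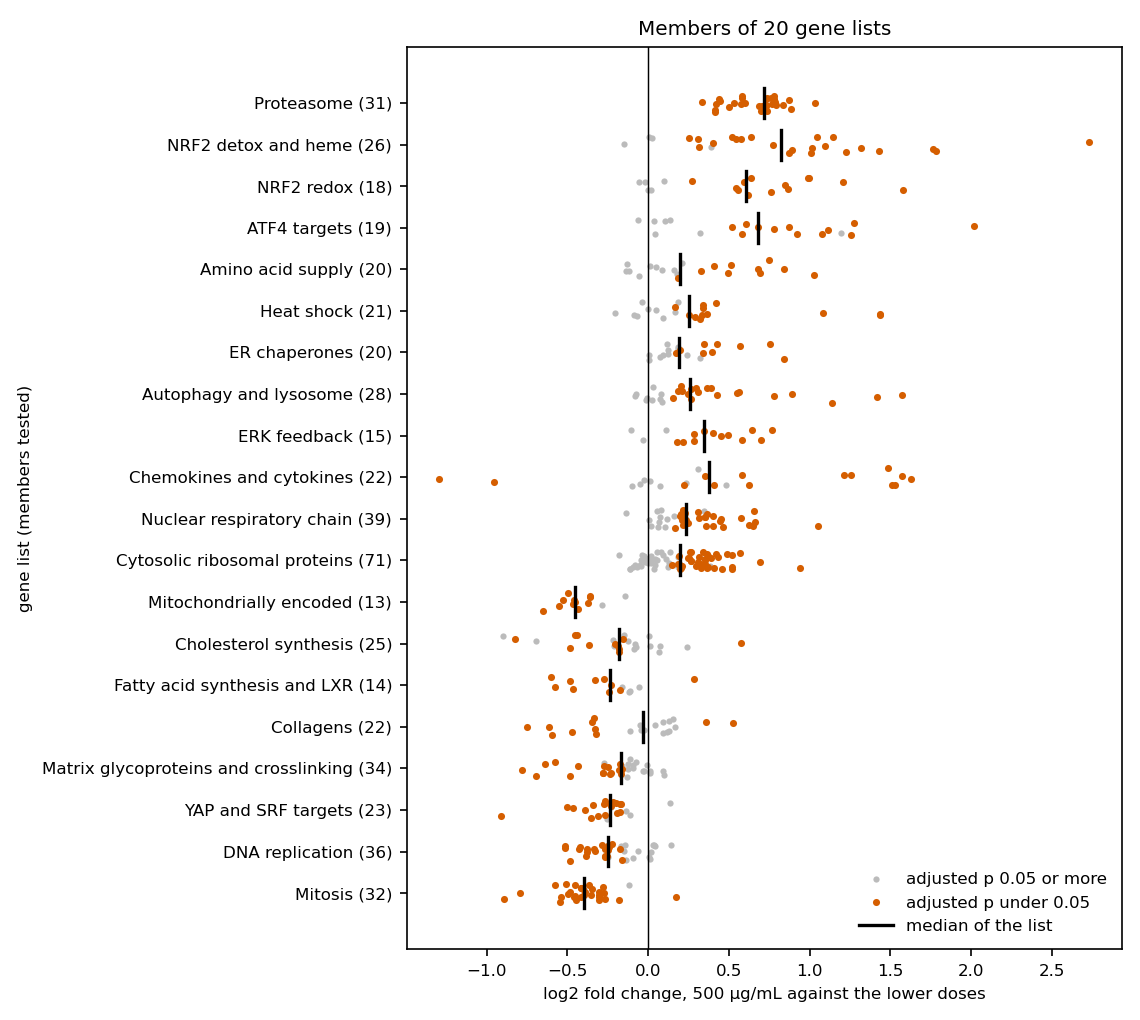
Log2 fold change at 500 µg/mL against the lower doses (horizontal axis) of each tested member of 20 gene lists (vertical axis, number of members tested in parentheses), with called genes in orange, other genes in grey and the median of each list as a black bar. Every proteasome gene lies to the right of 0 and orange, with a median of 0.72, and the mitosis list lies to the left with a median of -0.40.

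The 12 genes with the largest falls were of low abundance, and most were under 2 CPM in both libraries at 500 µg/mL. For falls the naming rule asks for a mean of 1 CPM only at the lower doses, so it favours genes with few reads at 500 µg/mL. MYOCD (chromosome 17:12665890-12768949), the coactivator myocardin that works with SRF, was at 0.152 and 0.257 CPM, against 0.966 to 1.73 CPM (-2.61 ± 0.37, adjusted p = 0.00128), from 11 reads at 500 µg/mL and 148 in the 4 other libraries. SUCNR1, the succinate receptor, stood at 0.190 and 0.366 CPM, against 0.976 to 1.34 CPM (-2.02 ± 0.35), and SERTAD4 at 0.609 and 0.806 CPM, against 2.16 to 3.07 CPM (-1.94 ± 0.21). VAV3, an exchange factor for small GTPases, had the highest level of the protein-coding genes with no read-through or near copy, at 3.35 and 4.51 CPM against 12.6 to 14.7 CPM (-1.74 ± 0.13, adjusted p = 5.93e-05). CYP4X1 (-2.16 ± 0.41), the secreted protein isthmin, ISM1 (-1.68 ± 0.30), the cytokine TNFSF15 (-1.63 ± 0.20) and the noncoding LINC00639 (-1.79 ± 0.29) fell too. The antisense genes CERS6-AS1 (-2.10 ± 0.40) and ZNF225-AS1 (-1.89 ± 0.59), the read-through gene BIVM-ERCC5 (-1.87 ± 0.49) and SMIM11, which has a near copy (-1.56 ± 0.28), may share reads with other genes and are uncertain. The call of ZNF225-AS1 was lost when replicate 2 at 500, 100 or 20 µg/mL or replicate 3 at 20 µg/mL was left out (adjusted p 0.0605 to 0.102), and that of BIVM-ERCC5 when replicate 2 at 20 µg/mL was left out (0.0566).

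Contractile and matrix genes fell modestly. Of 23 targets of YAP and SRF 18 fell and none rose, with a median of -0.23, and 9 were called without the batch term and 11 without replicate 3 at 20 µg/mL. ANKRD1, a target of YAP, was at 6.85 and 6.56 CPM at 500 µg/mL, against 11.2 to 14.2 CPM (-0.91 ± 0.10, adjusted p = 3.74e-04), and the actin-binding CNN2 at 133 and 158 CPM, against 186 to 229 CPM (-0.50 ± 0.06). Smooth muscle actin, ACTA2 (-0.46 ± 0.06), and caldesmon, CALD1 (-0.35 ± 0.05), fell as well. Of 34 matrix glycoproteins and crosslinking enzymes 18 fell and none rose, with a median of -0.17, and 8 were called without the batch term. The count was 11 without replicate 2 at 500 µg/mL, 10 without replicate 2 at 100 µg/mL and 9 without either library at 20 µg/mL. THBS1 (chromosome 15:39581079-39599466), the matrix glycoprotein thrombospondin, stood at 1102 and 1144 CPM, against 1792 to 2083 CPM (-0.78 ± 0.06, adjusted p = 7.58e-05). The proteoglycans decorin, DCN (-0.70 ± 0.12), and versican, VCAN (-0.64 ± 0.07), were lower. Of 22 collagen chains 8 fell and 2 rose, where 12.8% of all tested genes were lower and 14.5% higher. COL12A1 was at 240.5 and 221 CPM, against 358 to 438 CPM (-0.75 ± 0.07), and COL8A1 at 109.7 and 111 CPM, against 160.4 to 175 CPM (-0.61 ± 0.06). COL1A1 stood at 2811 and 2131 CPM, against 2881 to 3260 CPM (-0.33 ± 0.07, adjusted p = 0.00773), and was not called without the batch term (adjusted p = 0.0923).

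Lipid synthesis genes were lower in part. Of 25 genes of cholesterol synthesis and its control 10 fell and 1 rose, with a median of -0.18, where 12.8% of all tested genes were lower and 14.5% higher. The count of lower genes was 5 without the batch term, 6 in DESeq2, and 5 or 6 when any of the 4 libraries at lower doses was left out. Squalene epoxidase, SQLE (-0.44 ± 0.06), fell, while the kinase PMVK was the member that rose (0.57 ± 0.11). Of 14 tested genes of fatty acid synthesis and LXR targets 9 fell and 1 rose, and 6 were called lower without the batch term. The desaturase SCD was at 181 and 184 CPM, against 253 to 315 CPM (-0.60 ± 0.08, adjusted p = 9.11e-04), the regulator SREBF1 at 39.9 and 34.1 CPM, against 48.0 to 57.2 CPM (-0.48 ± 0.07), and fatty acid synthase, FASN, at 239.8 and 217 CPM, against 275 to 306 CPM (-0.33 ± 0.05). The sterol exporter ABCA1 was the member that rose (0.28 ± 0.06), and this call was lost without the batch term (adjusted p = 0.103).

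Feedback genes of ERK signalling rose in 12 of 15, with a median of 0.35, and none fell. The ERK phosphatase DUSP5 was at 18.9 and 19.1 CPM at 500 µg/mL, against 10.0 to 11.9 CPM (0.77 ± 0.08, adjusted p = 2.24e-04), and DUSP6 at 33.9 and 37.3 CPM, against 23.0 to 24.6 CPM (0.58 ± 0.06). The feedback inhibitor SPRY2 (0.64 ± 0.06) and PHLDA1 (0.70 ± 0.06) rose too. Immediate early genes were mixed, 6 of 21 higher and 4 lower, beside 14.5% and 12.8% of all tested genes. MAFF, a small partner of NRF2, was at 43.1 and 35.8 CPM, against 15.6 to 21.4 CPM (1.12 ± 0.12, adjusted p = 3.19e-04), and the phosphatase DUSP1 rose by 0.63 ± 0.05 on the log2 scale. EGR1 was lower, at 30.5 and 34.2 CPM against 43.6 to 53.1 CPM (-0.59 ± 0.07), and so was EGR3 (-0.72 ± 0.11). In the vehicle libraries EGR1 stood at 147 to 159 CPM, above all 6 libraries with extract.

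Chemokine and cytokine genes rose in 12 of 22 tested (of 28 listed), and 2 fell. The count higher was 7 in DESeq2 and 9 without the batch term. The neutrophil chemokine CXCL8 was at 9.32 and 8.68 CPM at 500 µg/mL, against 3.07 to 4.51 CPM (1.25 ± 0.16, adjusted p = 7.77e-04). IL1A (1.53 ± 0.23), CXCL3 (1.63 ± 0.33) and CXCL5 (1.57 ± 0.29) rose at levels of at most 2.40 CPM, and the call of CXCL5 was lost without replicate 2 at 500 µg/mL (adjusted p = 0.053). The monocyte chemokine CCL2 fell, at 3.35 and 6.37 CPM against 8.91 to 14.3 CPM (-1.29 ± 0.18, adjusted p = 0.00137), and so did CXCL12, at 5.63 and 7.69 CPM against 12.2 to 13.8 CPM (-0.95 ± 0.12). Of 26 interferon-stimulated genes 5 rose and 6 fell, beside 14.5% higher and 12.8% lower over all tested genes, and without the batch term 2 were called in each direction. Without replicate 2 at 500 µg/mL 3 were lower. MX1 was at 24.3 and 24.1 CPM, against 10.6 to 14.2 CPM (1.00 ± 0.08), while IFIT1 (-0.68 ± 0.13) and OAS3 (-0.63 ± 0.07) were lower. Among 19 matrix proteases and inhibitors 7 rose and 4 fell, with ADAMTS1 (0.91 ± 0.08) and the urokinase receptor PLAUR (0.76 ± 0.05) higher and the inhibitor TIMP3 lower, at 20.3 and 23.5 CPM against 37.9 to 40.5 CPM (-0.84 ± 0.07, adjusted p = 9.16e-05).

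Genes of autophagy and the lysosome rose in 19 of 28, with a median of 0.26 and none lower, and 11 were called without the batch term. The lipid droplet protein PLIN2 was at 156 and 146 CPM at 500 µg/mL, against 51.6 to 63.8 CPM (1.41 ± 0.07, adjusted p = 8.62e-06). The lysosomal galactosidase GLA stood at 99.9 and 114 CPM, against 42.0 to 56.0 CPM (1.14 ± 0.06), and the protease cathepsin D, CTSD, at 392 and 462 CPM, against 231 to 272 CPM (0.78 ± 0.05). The autophagy protein GABARAPL1 rose by 0.89 ± 0.08 on the log2 scale. LAMP1, the main lysosomal membrane protein, did not pass (0.08 ± 0.05, adjusted p = 0.288). Over all tested genes 14.5% were higher and 12.8% lower, which serves as background for the next 2 lists. Of 21 hypoxia response genes 8 rose and 1 fell, with ANGPTL4 first among those that rose. NDRG1, a stress-induced differentiation gene, was at 156 and 142 CPM, against 52.5 to 59.2 CPM (1.40 ± 0.06, adjusted p = 4.28e-06), and adrenomedullin, ADM, at 14.7 and 13.8 CPM, against 9.05 to 10.3 CPM (0.57 ± 0.08). Of 20 glucose transporters and glycolytic enzymes 8 rose, among them ENO2 (0.76 ± 0.06) and SLC2A3 (0.58 ± 0.06), and 2 fell. Without the batch term 4 of them were called higher.

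The alpha-arrestin TXNIP, which restrains glucose uptake, fell, at 5.02 and 4.76 CPM against 8.42 to 9.48 CPM (-0.85 ± 0.10, adjusted p = 4.82e-04), while its relative ARRDC4 rose, at 13.1 and 10.2 CPM against 6.34 to 7.63 CPM (0.75 ± 0.10). The whole list of FOXO targets, insulin pathway feedback genes and arrestins had 3 of 16 higher and 7 lower, among them FOXO1 (-0.61 ± 0.08) and PIK3R1 (-0.52 ± 0.05). Without the batch term 3 were lower, and 4 without replicate 2 at 500, 100 or 20 µg/mL. Of 9 tested targets of the aryl hydrocarbon receptor 1 was higher and 3 were lower, beside 14.5% higher and 12.8% lower over all tested genes. Of 6 tested markers of astrocytes and glioma 1 rose and 4 fell. The glutamate transporter SLC1A3 (-0.21 ± 0.06), the glial transcription factor SOX9 (-0.26 ± 0.05), vimentin, VIM (-0.22 ± 0.06), and the hyaluronan receptor CD44 (-0.17 ± 0.05) were lower. The call of VIM was lost without the batch term (adjusted p = 0.216), against 20 µg/mL alone (0.125), against the mean of 100 and 20 µg/mL (0.0723) and when any library other than replicate 3 at 500 or 100 µg/mL was left out (0.0746 to 0.183). Nestin, NES, an intermediate filament of neural progenitors, rose, at 16.3 and 11.9 CPM against 6.76 to 7.32 CPM (0.99 ± 0.10, adjusted p = 2.38e-04).

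Transcripts of the mitochondrial genome fell. Of 13 protein-coding genes of the mitochondrial genome 11 were lower at 500 µg/mL and none higher, with a median of -0.45. Without the batch term 7 were called, and 3 in a fit of 24 libraries that pools the spread over 3 extracts. The share of all counts from that genome was 5.68% and 6.8% at 500 µg/mL, against 8.04% to 8.45% at the lower doses and 10.47% to 10.7% in vehicle. This share also varied apart from this extract, from 6.37% to 10.7% over the 24 other libraries. Soyo-san, an extract of the same library set and batch D, held 7.18%, 7.01% and 6.68% at 500, 100 and 20 µg/mL. None of the 13 genes had a change that differed from that under Soshiho-tang or Yijin-tang (median differences -0.292 and -0.405). MT-CO1 stood at 14010 and 14060 CPM at 500 µg/mL, against 16260 to 19190 CPM (-0.36 ± 0.06, adjusted p = 0.00268). MT-CO2 was at 4015 CPM in batch E and 6411 CPM in batch D, against 7487 to 8484 CPM (-0.65 ± 0.13), and the difference between the batches was 0.69 on the log2 scale (adjusted p = 0.00126). In the fit of 24 libraries MT-CO1, MT-ND4 and MT-CYB did not pass (adjusted p 0.0666 to 0.0908). Of 39 nuclear genes of the respiratory chain 27 rose and none fell, with a median of 0.24, but 3 were called without the batch term, and 20 were higher in batch D than in batch E. The count was 15 without replicate 2 at 100 µg/mL, 17 without replicate 2 at 20 µg/mL and 8 against 20 µg/mL alone. Cytosolic ribosomal proteins gave 38 of 71 higher with a median of 0.20, and 3 were called without the batch term and 16 against 20 µg/mL alone. Both libraries at 500 µg/mL lay above all others for 19 of the 71, where 19.9% of all tested genes did so. Leaving out replicate 2 at 500, 100 or 20 µg/mL or replicate 3 at 100 µg/mL gave 23 to 25. Of the same 71 genes 52 were higher in batch D than in batch E. The part of the batch in these results was not tested beyond the batch term.

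The libraries of both batches differed in level for many genes. Between batch D and batch E, averaged over doses, 1526 genes differed (9.28%), 978 higher in D (5.95%) and 548 lower (3.33%). The count ran from 168 without replicate 3 at 20 µg/mL to 3124 without replicate 2 at 500 µg/mL, and was 277 to 484 without any other library at a lower dose and 3085 without replicate 3 at 500 µg/mL. Over all 16445 tested genes, the change at 500 µg/mL had the same sign in both batches for 70.453%. The called genes, which the test selects for moving alike in both batches, give no further measure of this. The median log2 fold change of the higher genes was 0.30 in batch D and 0.44 in batch E, and that of the lower genes was -0.28 in D and -0.39 in E. The change was smaller in D for 72.288% of higher and 75.012% of lower genes, and for 63.357% of all tested genes. A test of the difference itself called 897 genes (5.45%), 318 of them with a higher fold change in D (1.93%) and 579 with a lower one (3.52%), and 285 in DESeq2. Of the proteasome genes 4 had a smaller change in D, among them PSMD4 (0.56 in D and 0.99 in E, adjusted p = 0.00592) and PSMA7 (0.47 in D and 0.99 in E, adjusted p = 0.00243), and 2 had a larger one.

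Among the genes with the largest differences between batches were near copies, read-through genes and antisense genes, whose reads may be hard to assign. Sharing of reads was not tested. EIF3CL, a near copy of EIF3C, was at 1.79 CPM at 500 µg/mL against 301 and 299.9 CPM at the lower doses in batch E, and at 11.6 CPM against 4.30 and 16.8 CPM in batch D. The read-through gene BLOC1S5-TXNDC5 was at 14.3 CPM at 500 µg/mL against 0 to 0.765 CPM in batch E, and at 0 CPM against 1.09 to 6.90 CPM in batch D. U2AF1L5, a near copy of U2AF1, was at 39.6 CPM at 500 µg/mL in batch E and at 1.502 CPM in batch D, against 0.506 to 3.03 CPM at the lower doses of both batches. The antisense gene PHLDA1-AS1 was listed at 0 at 500 µg/mL in batch E and stood at 3.55 CPM in batch D, against 1.65 to 3.19 CPM at the lower doses. None of these 4 gives a direction of response that both batches share.

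**Figure D4:**
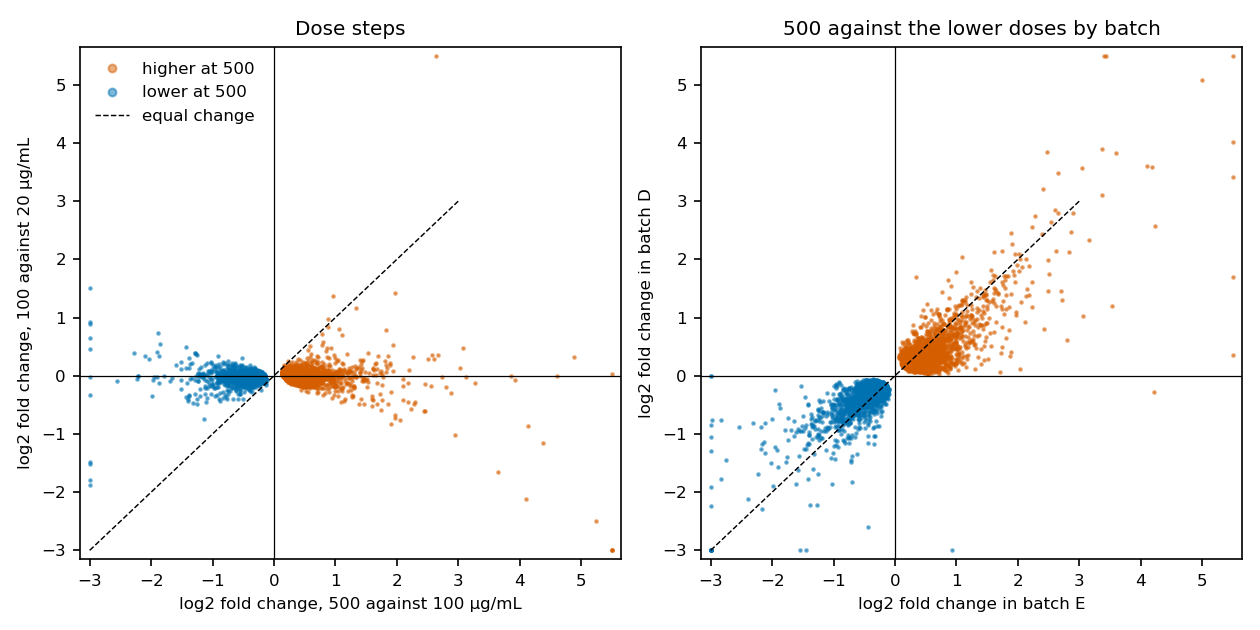
Log2 fold changes of the 4475 genes called at 500 µg/mL against the lower doses (orange higher, blue lower), with a dashed line where both axes are equal. On the left the step from 20 to 100 µg/mL (vertical) stays near 0 while the step from 100 to 500 µg/mL (horizontal) spreads out, and on the right batch D (vertical) is plotted against batch E (horizontal), with most points nearer to 0 on the axis of batch D. Values beyond the axes, 16 genes on the left and 24 on the right, are drawn at the edge.

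The same contrast of 500 µg/mL with the lower doses in the other extracts served to test which changes differed. Soshiho-tang and Yijin-tang have 3 libraries at 500 µg/mL and 6 at the lower doses, all of another library set and of batch E, so extract and library set cannot be told apart in levels, and the comparison is of changes within each extract. The change under Okbyeongpung-san differed from that under Soshiho-tang for 2327 of 17341 genes (13.4%), with 1337 higher (7.71%) and 990 lower (5.71%), and from that under Yijin-tang for 3501 (20.2%), with 1927 higher (11.1%) and 1574 lower (9.08%). Leaving out replicate 2 of Okbyeongpung-san at 500 µg/mL reduced these counts to 937 and 1440.

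All 31 listed proteasome genes had a larger change under Okbyeongpung-san than under either other extract. The median difference was 0.62 from Soshiho-tang and 0.74 from Yijin-tang, against 0.01 over all genes in both. PSMD13 averaged 149 CPM at 500 µg/mL and 72.6 CPM at the lower doses of Okbyeongpung-san, where Soshiho-tang gave 82.5 and 79.7 CPM and Yijin-tang gave 78.6 and 79.7 CPM (difference in log2 change 0.99 ± 0.11, adjusted p = 1.16e-06, and 1.06 ± 0.11, adjusted p = 2.47e-07). TUBB4A averaged 9.32 CPM at 500 µg/mL of Okbyeongpung-san and 0.291 and 0.419 CPM at 500 µg/mL of Soshiho-tang and Yijin-tang (5.24 ± 0.40 and 4.64 ± 0.39). HSPB8 averaged 49.98 CPM at 500 µg/mL and 18.5 CPM at the lower doses of Okbyeongpung-san, and in both other extracts 17.8 CPM at 500 µg/mL and 19.7 CPM at the lower doses. NDRG1 likewise stood at 149 CPM at 500 µg/mL of Okbyeongpung-san and at 48.9 and 53.6 CPM in the others.

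The stress and growth lists split by extract. The change of HMOX1 did not differ detectably from that under Soshiho-tang (difference 0.08 ± 0.13, adjusted p = 0.745) and was larger than under Yijin-tang (difference 2.32 ± 0.13, adjusted p = 4.14e-12). Of 26 heme and detoxification targets of NRF2, 10 had a larger change under Okbyeongpung-san than under Soshiho-tang and 20 than under Yijin-tang. Over all genes 7.71% were higher and 5.71% lower relative to Soshiho-tang, and 11.1% and 9.08% relative to Yijin-tang. ATF4 targets went the other way against Soshiho-tang, with 12 of 19 smaller and 1 larger, and were larger than under Yijin-tang in 11. GDF15 averaged 17.0 CPM at 500 µg/mL of Okbyeongpung-san, 50.8 CPM of Soshiho-tang and 3.74 CPM of Yijin-tang (differences -1.72 ± 0.18 and 2.12 ± 0.20). CHAC1 (-1.48 ± 0.14) and SESN2 (-1.01 ± 0.08) were also smaller than under Soshiho-tang. Mitotic genes differed from Yijin-tang, lower under Okbyeongpung-san in 28 of 32, and from Soshiho-tang in 1, which was higher.

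Hypoxia response genes were higher relative to Soshiho-tang in 15 of 21, and glycolytic genes in 15 of 20, beside 7.71% of all genes. A higher value here need not be a rise under Okbyeongpung-san. Against its own lower doses 8 of the 21 rose and 1 fell, and 8 of the 20 rose and 2 fell. BNIP3, a mitophagy receptor, averaged 126 CPM at 500 µg/mL and 99.8 CPM at the lower doses of Okbyeongpung-san, against 50.01 and 108 CPM with Soshiho-tang (difference 1.45 ± 0.11, adjusted p = 1.41e-09). Collagens were higher relative to Soshiho-tang in 12 of 22, while against the lower doses of Okbyeongpung-san 8 of the 22 fell and 2 rose. THBS1, which fell under Okbyeongpung-san, averaged 1123 CPM at 500 µg/mL of Okbyeongpung-san and 578 CPM of Soshiho-tang (difference in change 0.79 ± 0.10). TXNIP averaged 4.89 CPM at 500 µg/mL of Okbyeongpung-san, where Soshiho-tang gave 14.9 CPM and Yijin-tang 51.3 CPM (differences -1.32 ± 0.16 and -3.11 ± 0.16). Among the genes lowest relative to Soshiho-tang, KCP, a regulator of BMP signalling (-2.19 ± 0.40), ASB5 (-1.96 ± 0.38) and the lipid droplet protein PLIN4 (-1.82 ± 0.38) were all near 1 CPM under Okbyeongpung-san.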

How the data were processed

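Total RNA of SW1783 cells was sequenced as paired ends with a directional kit, per the labels' protocols. The authors deposited an estimated count per gene and library, not normalized. The submitters' processing notes name RSEM 1.3.3, STAR 2.7.3a, Trim Galore 0.6.5, FastQC 0.11.9 and the build hg38 (GRCh38). The strand setting and the annotation release are not given in the sources used here. If strand was not used, reads of antisense partners cannot be told apart. Of the values in the 6 libraries, 9.24% to 9.76% were not whole, and all were rounded. Libraries held 25.73 to 31.41 M counts, and the p-values cover the spread between libraries only.

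Genes with at least 10 counts in enough libraries and 15 in total (edgeR's filterByExpr) were tested with edgeR 4.0.16 in R 4.3.3, using TMM scaling, quasi-likelihood F tests and Benjamini-Hochberg adjustment over all genes tested, at an adjusted p of 0.05. SE is the log2 fold change over the square root of F. The main fit compared 500 with 100 and 20 µg/mL with title batch, which is also the replicate number, as a block. Deviations of same-numbered libraries correlated with r of 0.14, 0.18 and 0.47 over the 3 pairs of doses. Extracts were compared by interaction in 24 libraries. DESeq2 1.42.0, limma 3.58.1 voom, other scalings and filters, no block and leaving out each library were alternatives. The procedure was tested on simulated data. Symbols came from the name table and GENCODE 29, which matched 57055 of 60675 gene entries, and 30 blank columns were not used.

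Named genes were the 12 highest and 12 lowest called genes with at least 1 CPM and no overlap, up to 4 called members of each list with the largest change, and the 5 highest and 5 lowest of the other comparisons, of which some are given here. Further genes are named as best known members of lists or, where said, after their values were seen. Members, lists and rules were chosen with earlier results of these data known. Some genes are not reported here.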

Additional observations from a re-analysis of the deposited data

Results flagged for a closer look

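Among 182 sets of 4 libraries at the lower doses, 7 genes held 1 library far from the other 3 by Dixon's criterion at the 95% level, which chance meets in about 1 of 20 sets. PSMD14 was at 67.0 CPM in replicate 2 at 20 µg/mL, with the others at 70.4 to 71.1 CPM. ASNS was at 56.1 CPM in replicate 3 at 20 µg/mL, with the others at 59.5 to 60.1 CPM. BHMT2 was at 0.532 CPM in replicate 2 at 100 µg/mL, with the others at 0.253 to 0.290 CPM. VAV3 was at 14.7 CPM in replicate 2 at 20 µg/mL, with the others at 12.6 to 12.8 CPM. DCN was at 8.08 CPM in replicate 2 at 100 µg/mL, with the others at 10.3 to 10.5 CPM. The read-through genes BLOC1S5-TXNDC5 (6.90 CPM) and RPS10-NUDT3 (1.41 CPM) were highest in replicate 3 at 100 µg/mL.

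The fold change at 500 µg/mL differed between batch D and batch E for 897 genes by edgeR's quasi-likelihood test of the difference, with 1 library at 500 µg/mL in each batch. Values here are log2 fold change in D minus that in E. Protein quality control genes with a smaller change in D were PSMD4 (-0.43), PSMA7 (-0.52), POMP (-0.60), UBB (-0.49), HSPA1A (-0.35), HSPA1B (-0.35), DNAJA1 (-0.43), HSPA5 (-0.39) and SDF2L1 (-0.36). Stress response genes with a smaller change in D were RND3 (-0.32), ATF4 (-0.40), PPP1R15A (-0.57), GADD45A (-0.84) and MAFF (-0.62). PMVK (-0.52) had a smaller change in D, and COL1A1 (-0.28) had a more negative one. Higher values in D were found for NUSAP1 (0.31), MT-CYB (0.38) and MT-CO2 (0.69). The respiratory chain gene NDUFA1 (-1.34 ± 0.14, adjusted p = 0.000262) and the ribosomal gene RPS27A (-1.23 ± 0.08, adjusted p = 8.03e-06) also had lower values in D. Among near copies, read-through genes and antisense genes the values were ZNF225-AS1 (7.18), BIVM-ERCC5 (3.44), U2AF1L5 (-4.49), PHLDA1-AS1 (9.31), EIF3CL (7.49), BLOC1S5-TXNDC5 (-14.88) and RPS10-NUDT3 (-9.80). Several of these rest on libraries at 0, so their fitted size depends on the prior count. In DESeq2 the calls of RND3 (adjusted p = 0.207), HSPA1A (0.0722), HSPA1B (0.13), SDF2L1 (0.434), NUSAP1 (0.231) and MAFF (0.119) were lost. With another scaling SDF2L1 (0.0513) and COL1A1 (0.0545) were lost, and COL1A1 also with the filter at 1 CPM (0.0509). Leaving out replicate 2 at 100 µg/mL ended the calls of SDF2L1 (0.113) and PMVK (0.0964), replicate 3 at 100 µg/mL that of RPS10-NUDT3 (0.205), replicate 2 at 20 µg/mL those of RND3 (0.0525) and NUSAP1 (0.068), and replicate 3 at 20 µg/mL those of HSPA1B (0.0516) and COL1A1 (0.106).

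The change at 500 µg/mL differed between Okbyeongpung-san and Soshiho-tang for 2327 genes and between Okbyeongpung-san and Yijin-tang for 3501, by the test of the difference in 24 libraries. In log2 units, the change under Okbyeongpung-san differed for PSMD13 by 0.99 from Soshiho-tang and by 1.06 from Yijin-tang, for PSMD14 by 0.71 from Soshiho-tang and by 0.78 from Yijin-tang, and for HSPB8 by 1.59 from Soshiho-tang and by 1.58 from Yijin-tang. It differed for HSPA6 by 2.79 from Soshiho-tang and by 3.93 from Yijin-tang, for TUBB4A by 5.24 from Soshiho-tang and by 4.64 from Yijin-tang, and for KIAA0319 by 3.67 from Soshiho-tang and by 4.13 from Yijin-tang. The difference was 4.02 and 4.05 for KIF1A against Soshiho-tang and Yijin-tang, and both were lost without replicate 2 of Okbyeongpung-san at 500 µg/mL (adjusted p = 0.0511 and 0.0754). It differed for NDRG1 by 1.34 from Soshiho-tang and by 1.42 from Yijin-tang, for BNIP3 by 1.45 from Soshiho-tang and by 0.53 from Yijin-tang, and for THBS1 by 0.79 from Soshiho-tang and by -0.52 from Yijin-tang. Among stress effectors it differed for GDF15 by -1.72 from Soshiho-tang and by 2.12 from Yijin-tang, for TRIB3 by -0.99 from Soshiho-tang and by 1.07 from Yijin-tang, and for SESN2 by -1.01 from Soshiho-tang and by 0.56 from Yijin-tang. It differed for TXNIP by -1.32 from Soshiho-tang and by -3.11 from Yijin-tang, for CYP4X1 by -2.01 from Soshiho-tang and by -2.50 from Yijin-tang, and for ASB5 by -1.96 from Soshiho-tang and by -1.19 from Yijin-tang. The call of ASB5 against Yijin-tang was lost without replicate 2 (adjusted p = 0.0948) or 3 (0.163) of Okbyeongpung-san at 500 µg/mL, replicate 2 at 20 µg/mL (0.0643) or replicate 3 of Yijin-tang at 500 µg/mL (0.0804). Only some of the named genes were examined singly for this difference. Of these, CHAC1 (-1.48), P4HA1 (0.67), KCP (-2.19) and PLIN4 (-1.82) differed from Soshiho-tang alone, and HMOX1 (2.32) and MYOCD (-2.91) from Yijin-tang alone. Other named genes may differ too: of 32 mitotic genes 28 were lower relative to Yijin-tang.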

How the results depend on the processing

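The 4475 genes called at 500 µg/mL against the lower doses became 2174 without the replicate block and 2332 against 20 µg/mL alone, and ran from 2802 to 5874 with 1 library left out. Between 100 and 20 µg/mL, 34 genes were called with no filter on low counts, and 0 to 10 with 1 library left out. Between 500 and 100 µg/mL the count was 3463 with no filter and 620 without the replicate block, and 481 to 5228 with 1 library left out. For the difference between batches the count was 1446 with no filter and 285 in DESeq2, and 885 to 1404 with 1 library left out. Between batch D and batch E it was 2697 with no filter, and 168 to 3124 with 1 library left out. Against Soshiho-tang it ran from 937 to 2665, and against Yijin-tang from 1440 to 3615. The cause of these shifts was not tested. With 1 library left out, the log2 fold change of U2AF1L5 ran from -0.262 to 4.218 and that of BLOC1S5-TXNDC5 from -9.802 to 5.113, both negative without replicate 2 at 500 µg/mL. Of 156 called genes examined singly, 144 kept their call without the replicate block. DESeq2 gave an adjusted p for 146 of the 156, and 143 of those kept their call, while the rest of the 156 could not be called there. With 2 libraries at 500 µg/mL, 1 in each batch, a leave-out fit assumes that the lone library varies like the other doses. Low counts limit KIF1A, HSPA6, MYOCD and SUCNR1, and also CYP4X1, PPP2R2C, DYNC1I1, GCNT3, CYP4F11, CXCL3 and ZNF225-AS1.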

Other observations

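Of 19 genes of TGF-beta and endothelin signalling 2 were higher and 4 lower at 500 µg/mL, with a median log2 fold change of -0.11, beside 14.5% higher and 12.8% lower over all tested genes. Of 9 tested glucocorticoid-responsive genes (of 11 listed) 1 was higher, ANGPTL4, and 5 lower, with a median of -0.17. The lower count was 2 without the batch term and 1 to 3 when any library other than replicate 3 at 500 µg/mL was left out. Summed epithelial markers stood at 78.5 and 81.1 CPM at 500 µg/mL, against 120 to 153 CPM at the lower doses, with EPCAM, CDH1, KRT5, KRT14 and KRT19 under 1 CPM in every library. Of the 3 members tested, KRT18 was lower (log2 fold change -0.89), and KRT8 (-0.15) and KRT14 (0.39) were not called.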
